A study of Homo sapiens with 15 samples.

Results

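Levels of 9 genes that mark or regulate blood stem and progenitor cells were followed across 15 RNA-seq libraries of the human leukaemia line TF-1. The genes were CD34, ERG, LYL1, MECOM, MYB, HHEX, HLF, SPINK2 and PROM1, taken by symbol from a table of 56624 symbols, and each stood on 1 row of it. TF-1 is an erythroleukaemia line that depends on cytokines such as GM-CSF. The libraries fell into 5 groups of 3: IDH1R132H, IDH2R140Q, IDH2R140W and IDH2R172K, isogenic TF-1 lines in which a base editor had introduced the named mutation into the enzyme IDH1 or IDH2, and unedited Parental cells. GM-CSF was in the medium of Parental cells, at 2 ng/ml, and not in that of the edited lines, so in each comparison with Parental the genotype and the medium cannot be told apart. The 4 edited lines shared their medium. The series asked how the edited mutations alter the transcriptome. Whether an edited line was 1 clone or a pool of cells, and whether the replicates were separate cultures, is not given in the sources used here, so each p-value speaks of the variation among these libraries alone, and that variation may be technical.

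Blood stem cells divide to renew themselves or give rise to progenitors, and a small circuit of transcription factors keeps the early state. CD34 is the cell surface sialomucin by which stem and progenitor cells are sorted in the clinic, and it is lost as cells mature. ERG and LYL1 belong to a group of factors (with TAL1, LMO2, GATA2, RUNX1 and FLI1) that bind many of the same enhancers in stem and progenitor cells. MECOM, also known as EVI1, and HLF are factors of the most primitive stem cells, MYB drives progenitor expansion, and HHEX is a homeodomain repressor needed as stem cells commit. PROM1 encodes CD133, a membrane protein of primitive cells, and SPINK2 encodes a serine protease inhibitor found in primitive blood cells. Mutant IDH enzymes make 2-hydroxyglutarate, which inhibits enzymes that remove DNA and histone methyl marks, and IDH mutations are recurrent in myeloid leukaemia.

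The promoters of ERG, MECOM and HLF are shown because ERG and MECOM set edited lines apart below, HLF is the factor nearest the floor, and these windows hold no annotated exon of their gene. Each sequence is the 250 bases before a RefSeq start (GRCh38.p14), read along the gene's strand, and capitals mark letters that match a searched motif. Both strands were searched for 7 motifs. The motif of the GATA family was spelled AGATAA, and that of ETS proteins such as ERG was spelled CCGGAA. The E-box bound by TAL1 and LYL1 was spelled CAGNTG, the site of the RUNX proteins TGTGGT, and the site of MYB itself was spelled AACNGT. The CCAAT box was searched by those letters and the TATA box by the letters TATAAA.
ERG start 1 (chr21:38660668-38660917, minus strand): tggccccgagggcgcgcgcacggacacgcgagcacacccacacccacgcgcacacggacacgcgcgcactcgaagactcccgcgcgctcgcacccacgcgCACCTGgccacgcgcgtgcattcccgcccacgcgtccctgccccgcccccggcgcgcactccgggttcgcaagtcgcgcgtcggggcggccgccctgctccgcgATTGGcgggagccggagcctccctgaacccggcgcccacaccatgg
ERG start 3 (chr21:38498505-38498754, minus strand): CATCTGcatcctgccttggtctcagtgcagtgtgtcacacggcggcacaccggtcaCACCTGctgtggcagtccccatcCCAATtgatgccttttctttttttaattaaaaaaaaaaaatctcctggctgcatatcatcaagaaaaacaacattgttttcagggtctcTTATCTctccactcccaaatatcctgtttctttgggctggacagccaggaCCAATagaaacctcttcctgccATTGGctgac
MECOM start 1 (chr3:169663713-169663962, minus strand): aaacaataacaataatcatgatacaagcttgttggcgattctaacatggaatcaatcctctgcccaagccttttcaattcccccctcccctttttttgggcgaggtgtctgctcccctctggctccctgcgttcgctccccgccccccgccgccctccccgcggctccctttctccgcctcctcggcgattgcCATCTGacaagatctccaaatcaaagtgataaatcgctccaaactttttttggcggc
HLF start 1 (chr17:55264710-55264959, plus strand): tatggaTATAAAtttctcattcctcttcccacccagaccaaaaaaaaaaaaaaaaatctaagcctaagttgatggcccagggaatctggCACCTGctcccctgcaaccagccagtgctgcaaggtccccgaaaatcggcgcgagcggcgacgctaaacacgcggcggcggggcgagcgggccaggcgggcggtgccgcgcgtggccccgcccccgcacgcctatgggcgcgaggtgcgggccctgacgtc

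The upstream ERG start, at 77.2% GC, held 1 E-box and 1 CCAAT match, whereas start 3 (46.4% GC) held 2 E-box, 1 GATA and 3 CCAAT matches. MECOM start 1 held a single E-box match, at −57 to −52 from the start, and HLF start 1 an E-box and a TATA match. Over all starts, the E-box occurred in 11 of 19 windows and in at least 1 window of 6 of the 9 genes, against 42.5% of 35116 RefSeq promoters of the same length. The CCAAT box occurred in 6 of the 19 windows (32% of promoters), the GATA motif in 3 (9.17%), the MYB motif in 2 (18.6%), and the ETS (14.5%), RUNX (11%) and TATA (10.7%) motifs in 1 each. The windows of ERG starts 3 and 4 overlap over most of their length and share matches. In ERG start 2 an E-box and a MYB match overlapped, and the windows of MYB and LYL1 held none of the 7 motifs. The CD34 window, whose E-box match lies at −238 to −233, falls in an exon of CD34 as GENCODE annotates it and is not printed. The windows of LYL1, MECOM start 2 and PROM1 starts 1 and 3 also lie wholly in exons of their gene. Some others do so in part, and the counts above include all of them. These matches describe letters, and no binding was measured.

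Expression was given in TPM, a transcript level that takes account of length and sums to the same total in each library, so levels of different genes can be set side by side but the read depth of each library is unknown. A difference is that of mean log2(TPM + 1), edited line minus Parental or first-named minus second-named line, and it is smaller than the true change where a gene is scarce. A gene was said to rise or fall where the limma adjusted p was under 0.05 over 14881 tested genes and the difference reached 2-fold. An exact test of 3 libraries against 3 cannot go below p = 0.1, so each adjusted p rests on a spread shared over groups and genes. In these bulk libraries, a change in the share of cells with a transcript and a change in its level per cell cannot be told apart. IDH2R140W replicate 3 and Parental replicate 2 stood apart from their groups. Of the TPM, 20.2% fell in 74 ribosomal protein genes in IDH2R140W replicate 3, against 16.7% and 16.9% in the other libraries of that line, and 19.3% in Parental replicate 2, against 15.4% and 16.4% in the other Parental ones. These libraries also had the lowest CD34, ERG, MECOM, MYB and HLF of their groups, so results are given without them where that changes a call.

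CD34 was the most abundant of the 9 genes, at an average of 392 TPM over the 15 libraries, which placed it above 97.3% of tested genes, and it was higher in each edited line than in Parental. CD34 (ENSG00000174059, hg38 chromosome 1, 207880972 to 207911402, minus strand) stood at 506, 515 and 516 TPM in IDH1R132H, at 474, 489 and 492 in IDH2R140Q, at 297, 295 and 236 in IDH2R140W and at 542, 512 and 544 in IDH2R172K, against 177, 118 and 163 in Parental. All 12 edited libraries lay above the 3 Parental ones, with IDH2R140W between Parental and the other lines and overlapping neither. CD34 rose by 1.76 in IDH1R132H (standard error 0.119, limma adjusted p = 5.16e-08), by 1.68 in IDH2R140Q (1.04e-07) and by 1.82 in IDH2R172K (5.14e-08), with means 3.36, 3.18 and 3.49 times that of Parental. In IDH2R140W the difference was 0.87 (adjusted p = 0.000107), or 81.2% above Parental, and so under 2-fold.

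The order of mean CD34 levels was IDH2R172K, IDH1R132H, IDH2R140Q, IDH2R140W and Parental. The difference of IDH1R132H from IDH2R172K was −0.06 (95% interval −0.31 to 0.20, adjusted p = 0.773), and that of IDH1R132H from IDH2R140Q was 0.08 (−0.18 to 0.33, 0.672). Each of the 3 lines differed from IDH2R140W, with IDH1R132H 0.90 above it (adjusted p = 4.80e-05), IDH2R140Q 0.82 above it (0.000147) and IDH2R140W 0.95 below IDH2R172K (3.30e-05; −1.01 and so 2-fold without IDH2R140W replicate 1, and also without replicate 2). Over 14 alternatives the CD34 difference from Parental ran from 1.56 to 1.88 in IDH1R132H, from 1.42 to 1.80 in IDH2R140Q, from 0.69 to 0.98 in IDH2R140W and from 1.65 to 1.93 in IDH2R172K, with the same calls under each.

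**Figure D1:**
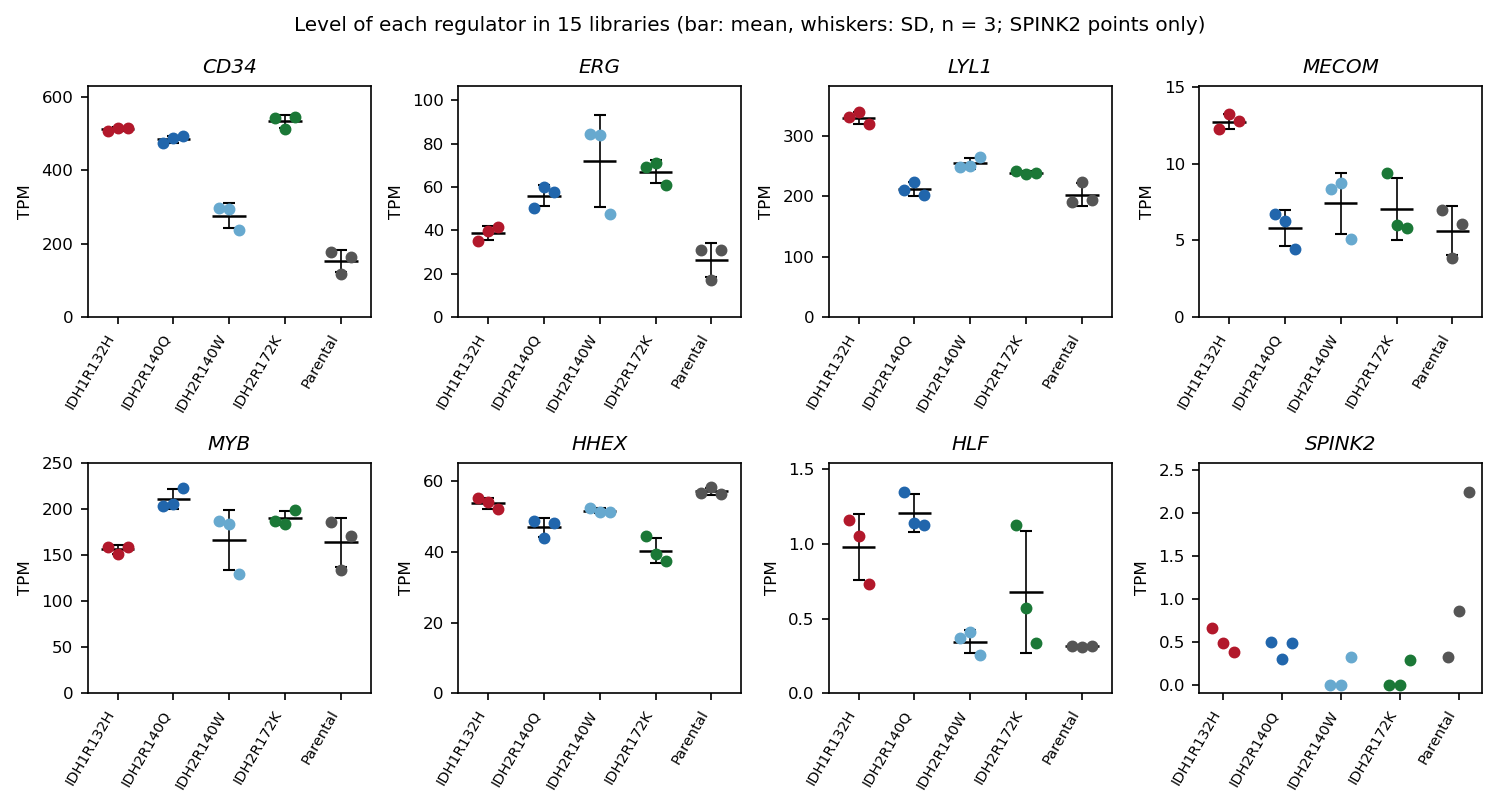
TPM of 8 of the 9 genes in each of the 15 libraries, with a panel per gene and a vertical axis of its own from 0 (slightly below 0 for SPINK2, so that values of 0 can be seen). Points are libraries, bars group means and whiskers SD (n = 3), except that SPINK2 shows points only. The Parental libraries of CD34 lie at 118 to 177 TPM, below all edited ones, whereas for ERG it is IDH2R140W and IDH2R172K that lie highest, and for LYL1 and MECOM it is IDH1R132H.

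ERG, an ETS factor, rose in the 3 IDH2 lines. ERG (ENSG00000157554, hg38 chromosome 21, 38380027 to 38661780, minus strand) stood at 35.2, 39.8 and 41.4 TPM in IDH1R132H, at 50.4, 59.8 and 57.7 in IDH2R140Q, at 84.4, 83.9 and 47.4 in IDH2R140W and at 69.3, 70.9 and 60.8 in IDH2R172K, against 31.0, 17.02 and 30.7 in Parental. All edited libraries lay above the Parental ones, IDH1R132H closest to them, and IDH2R140W replicate 3 lay far below the other libraries of its line. ERG rose by 1.42 in IDH2R140W (limma adjusted p = 0.000356), by 1.36 in IDH2R172K (0.000279) and by 1.11 in IDH2R140Q (0.00131). The IDH2R140Q difference was under 2-fold after median-ratio scaling (0.85), after quantile normalisation (0.88) and without Parental replicate 2 (0.83), where its adjusted p stayed under 0.05. In IDH1R132H the difference was 0.59 (adjusted p = 0.0468, with 0.0115 to 0.218 under the alternatives) and 0.32 without Parental replicate 2.

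Among the edited lines, ERG in IDH1R132H was 0.83 below IDH2R140W (adjusted p = 0.0107, and 9.38e-07 to 0.0465 over the alternatives) and 0.77 below IDH2R172K (0.0168, range 0.000504 to 0.0611), both under 2-fold. Without IDH2R140W replicate 3 the first of these passed 2-fold, at −1.10. Between the IDH2 lines the intervals of the ERG difference included 0, with −0.31 between IDH2R140Q and IDH2R140W (95% interval −0.80 to 0.17), −0.26 between IDH2R140Q and IDH2R172K (−0.74 to 0.23) and 0.06 between IDH2R140W and IDH2R172K (−0.43 to 0.54). IDH2R140W had the lowest CD34 of the edited lines and the highest mean ERG, at 71.9 ± 21.2 TPM (SD, n = 3).

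LYL1, a basic helix-loop-helix factor, was highest in IDH1R132H. LYL1 (ENSG00000104903, hg38 chromosome 19, 13099033 to 13103161, minus strand) stood at 332, 339.5 and 319.7 TPM in IDH1R132H, at 211, 224 and 202 in IDH2R140Q, at 249, 250.3 and 266 in IDH2R140W and at 241, 237 and 239 in IDH2R172K, against 190.1, 224 and 194 in Parental. The IDH1R132H libraries lay above all others, and IDH2R140Q overlapped Parental. The difference from Parental was 0.70 in IDH1R132H (limma adjusted p = 1.18e-06), 0.33 in IDH2R140W (0.00187), 0.24 in IDH2R172K (0.00940) and 0.07 in IDH2R140Q (0.419), none of them 2-fold. The value for IDH2R172K was 0.08 after median-ratio scaling (adjusted p = 0.596, the highest of the alternatives), that for IDH2R140W 0.28 (0.0790), and that for IDH2R140Q turned to −0.20. IDH1R132H exceeded IDH2R140Q by 0.64 (adjusted p = 6.55e-06), IDH2R172K by 0.46 (8.48e-05) and IDH2R140W by 0.37 (0.000498, range over the alternatives 1.34e-05 to 0.137).

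MECOM, a zinc finger factor, rose in IDH1R132H alone among the comparisons with Parental. MECOM (ENSG00000085276, hg38 chromosome 3, 169083499 to 169663618, minus strand) stood at 12.3, 13.2 and 12.8 TPM in IDH1R132H, at 6.70, 6.27 and 4.46 in IDH2R140Q, at 8.37, 8.78 and 5.12 in IDH2R140W and at 9.42, 6.01 and 5.82 in IDH2R172K, against 6.98, 3.86 and 6.09 in Parental. The IDH1R132H libraries lay above the other 12, whereas each IDH2 line overlapped Parental. The rise in IDH1R132H was 1.08 (standard error 0.232, limma adjusted p = 0.00179), and it was under 2-fold after median-ratio scaling (0.91), after quantile normalisation (0.88) and without Parental replicate 2 (0.87), with adjusted p-values up to 0.00863. The other differences were 0.34 in IDH2R140W (adjusted p = 0.329), 0.29 in IDH2R172K (0.350) and 0.05 in IDH2R140Q (0.877), the last of which lay below 0 after either scaling. MECOM in IDH1R132H rose against IDH2R140Q by 1.03 (adjusted p = 0.00392), or 0.88 without IDH2R140Q replicate 3. It stood 0.80 above IDH2R172K (0.0168, range over the alternatives 0.00626 to 0.0694) and 0.74 above IDH2R140W (0.0234, range 0.0168 to 0.105).

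MYB and HHEX did not rise or fall in any comparison. MYB (ENSG00000118513, hg38 chromosome 6, 135181315 to 135219173, plus strand) stood at 159, 151 and 159 TPM in IDH1R132H, at 204, 206 and 223 in IDH2R140Q, at 187, 184 and 129.6 in IDH2R140W and at 187, 184 and 199 in IDH2R172K, against 186, 134.6 and 171 in Parental. The means were 156 ± 4.54 TPM in IDH1R132H, 211 ± 10.8 in IDH2R140Q, 167 ± 32.4 in IDH2R140W, 190.4 ± 7.92 in IDH2R172K and 164 ± 26.5 in Parental (SD, n = 3 each). IDH2R140Q was the line that did not overlap Parental. There the difference was 0.37 (limma adjusted p = 0.0326, with 0.00311 to 0.345 under the alternatives), and in the other lines it was −0.06 in IDH1R132H (0.758), 0.02 in IDH2R140W (0.942) and 0.23 in IDH2R172K (0.187). IDH1R132H was 0.43 below IDH2R140Q (adjusted p = 0.0240, range over the alternatives 0.000430 to 0.0857).

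HHEX had its highest level in Parental. HHEX (ENSG00000152804, hg38 chromosome 10, 92689951 to 92695646, plus strand) stood at 55.2, 54.0 and 52.1 TPM in IDH1R132H, at 48.6, 43.9 and 48.1 in IDH2R140Q, at 52.3, 51.2 and 51.3 in IDH2R140W and at 44.4, 39.4 and 37.3 in IDH2R172K, against 56.7, 58.2 and 56.2 in Parental. All 12 edited libraries lay below the 3 Parental ones. The difference was −0.49 in IDH2R172K (limma adjusted p = 0.000107), where the mean was 29.3% lower, and −0.28 in IDH2R140Q (0.00693), both under 2-fold. It was −0.14 in IDH2R140W (0.187) and −0.08 in IDH1R132H (0.373), and IDH1R132H passed the p threshold after median-ratio scaling, at −0.28 (0.0250). IDH2R172K was also the lowest edited line, with IDH1R132H 0.41 above it (adjusted p = 0.000630), IDH2R140W 0.35 above it (0.00215) and IDH2R140Q 0.21 above it (0.0384, range over the alternatives 0.0120 to 0.424).

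HLF, SPINK2 and PROM1 were at or near the floor of the table. HLF (ENSG00000108924, hg38 chromosome 17, 55265012 to 55325065, plus strand) stood at 1.16, 1.05 and 0.73 TPM in IDH1R132H, at 1.35, 1.14 and 1.13 in IDH2R140Q, at 0.37, 0.41 and 0.26 in IDH2R140W and at 1.13, 0.57 and 0.34 in IDH2R172K, against 0.32, 0.31 and 0.32 in Parental. IDH1R132H, IDH2R140Q and IDH2R172K lay above Parental, IDH2R172K with its lowest library close to it, and IDH2R140W overlapped it. HLF entered the fit through libraries of the edited lines alone, since it reached 1 TPM in 6 libraries, none of them Parental or IDH2R140W, so it had to differ there and its p-values are a description. It was 0.74 in IDH2R140Q (limma adjusted p = 0.00402) and 0.58 in IDH1R132H (0.0165), and with a pseudocount of 0.1 these became 1.64 and 1.35. The difference was 0.32 in IDH2R172K (0.165) and 0.03 in IDH2R140W (0.931). HLF in IDH2R140Q and IDH1R132H also stood 0.71 and 0.55 above IDH2R140W (adjusted p = 0.00739 and 0.0266).

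SPINK2 (ENSG00000128040, hg38 chromosome 4, 56809860 to 56821742, minus strand) reached 1 TPM in 1 library and was not tested. It was listed at 0.66, 0.49 and 0.38 TPM in IDH1R132H, at 0.50, 0.30 and 0.49 in IDH2R140Q, at 0, 0 and 0.32 in IDH2R140W and at 0, 0 and 0.29 in IDH2R172K, against 0.32, 0.86 and 2.24 in Parental. The Parental libraries spanned the widest range and overlapped IDH1R132H and IDH2R140Q. PROM1 (ENSG00000007062, hg38 chromosome 4, 15963076 to 16084378, minus strand) was listed at 0.04 TPM in IDH1R132H replicate 3 and in IDH2R140Q replicate 2 and at 0 in the other libraries. No fold is given for either gene.

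**Figure D2:**
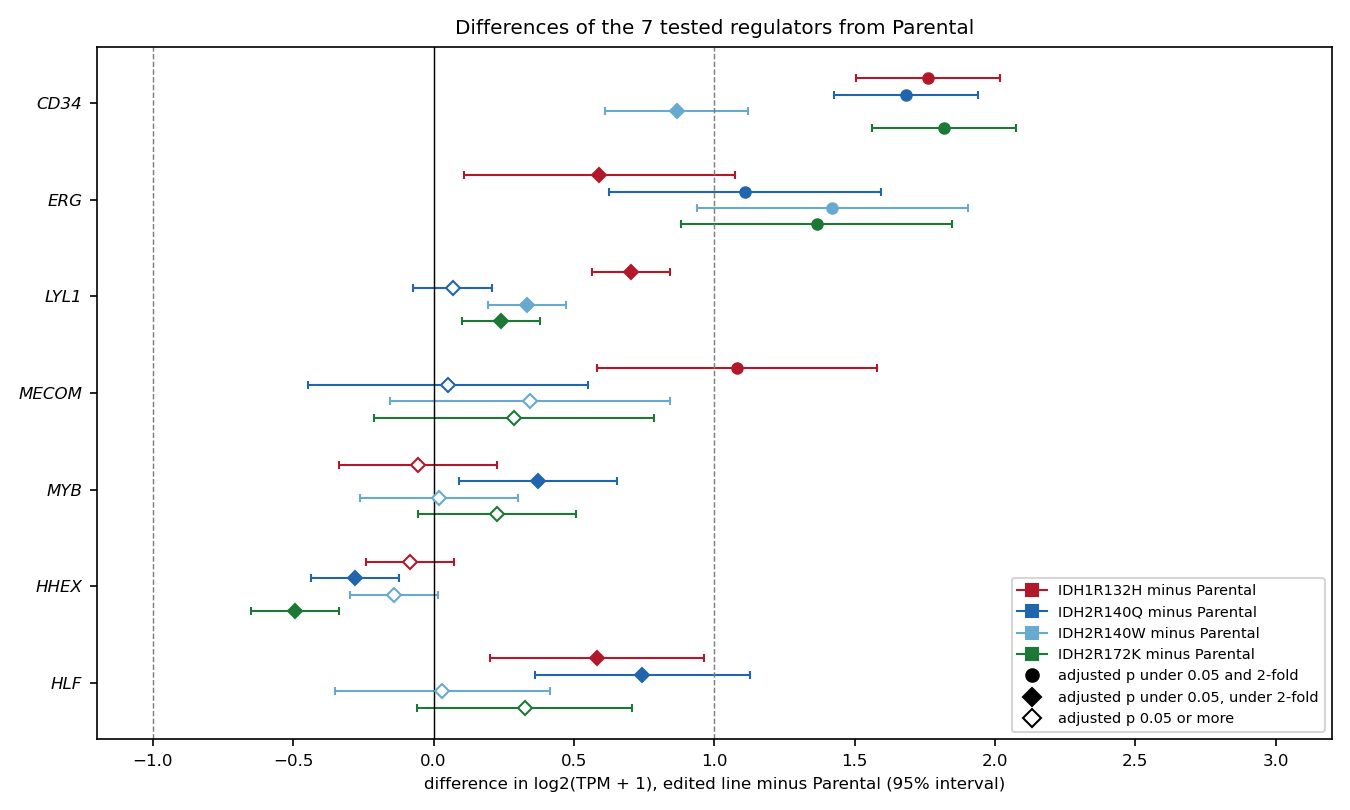
Difference in log2(TPM + 1) of the 7 tested genes, edited line minus Parental, with 95% intervals, colours marking the lines and dashed lines at 2-fold. Filled circles passed adjusted p under 0.05 and 2-fold, filled diamonds the p threshold alone and open diamonds neither. CD34 lies between 1.68 and 1.82 in 3 lines and at 0.87 in IDH2R140W, and HHEX lies below 0 in each line.

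Counted over the 7 tested genes, 2 rose in IDH1R132H (CD34 and MECOM) and 0 fell, where 10.8% of all tested genes changed, 7.74% rising and 3.09% falling. In IDH2R140Q CD34 and ERG rose and 0 fell (10.0% of all genes changed, 7.56% rising and 2.47% falling). In IDH2R140W ERG alone rose and 0 fell (4.78% changed, 2.68% rising and 2.10% falling). In IDH2R172K CD34 and ERG rose and 0 fell (9.31% changed, 6.36% rising and 2.96% falling). At an adjusted p under 0.05 with no limit on size, 5 of the 7 differed from Parental in IDH1R132H (43.8% of all genes), 5 in IDH2R140Q (44.4%), 3 in IDH2R140W (24.0%) and 4 in IDH2R172K (39.1%). After median-ratio scaling, after quantile normalisation or without Parental replicate 2, 1 rose in IDH1R132H and 1 in IDH2R140Q, which was CD34 in each. With a pseudocount of 0.1, HLF was added in both and 3 rose. SPINK2 and PROM1 did not reach the level needed for the test and HLF did so through edited lines alone, so these counts describe the genes and support nothing beyond that. The comparisons with Parental share their control libraries. The median difference of the 7 genes was 0.59 in IDH1R132H and 0.37 in IDH2R140Q, and 0.33 in IDH2R140W and 0.29 in IDH2R172K, beside 0.16, 0.23, 0.03 and 0.13 over all tested genes. Median-ratio scaling moved the median of all genes by −0.16, −0.23, −0.04 and −0.13 in these comparisons. The groups did not overlap for 6, 5, 4 and 5 of the 7 genes in these lines in turn, beside 52.4%, 53.9%, 31.4% and 47.9% of all genes. Among the 6 comparisons between edited lines, MECOM in IDH1R132H against IDH2R140Q was the only one of these genes that changed, where 5.50% of all genes did. In the other pairs 0 of the 7 changed, against 7.86% of all genes for IDH1R132H against IDH2R140W, 7.49% for IDH1R132H against IDH2R172K, 5.69% for IDH2R140Q against IDH2R140W, 7.57% for IDH2R140Q against IDH2R172K and 6.86% for IDH2R140W against IDH2R172K. With no limit on size, 3 of the 7 differed for IDH1R132H against IDH2R140Q (28.5% of all genes), 5 against IDH2R140W (35.6%) and 4 against IDH2R172K (32.5%). IDH2R140Q differed from IDH2R140W for 3 (32.9%) and from IDH2R172K for 1 (31.0%), and IDH2R140W from IDH2R172K for 2 (31.2%).

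RUNX1, the runt domain factor that opens definitive haematopoiesis, rose in all 4 lines among the 8 partners and co-regulators of ERG and LYL1. RUNX1 averaged 116 ± 5.49 TPM in IDH1R132H and 123 ± 10.3 in IDH2R140Q, and 88.7 ± 33.1 in IDH2R140W and 132 ± 6.90 in IDH2R172K, against 39.3 ± 13.1 in Parental (SD, n = 3 each), with differences of 1.60, 1.68, 1.13 and 1.78 and limma adjusted p-values of 0.000208, 0.000154, 0.00559 and 9.47e-05. The IDH2R140W rise was lost under 4 of 14 alternatives, which were a fit of the compared libraries alone and leaving out IDH2R140W replicate 1, IDH2R140W replicate 2 or Parental replicate 2 (lowest difference 0.85). FLI1, an ETS factor related to ERG, rose in IDH2R172K by 1.06 (149.7 ± 5.76 against 71.7 ± 9.01 TPM, adjusted p = 1.01e-06), and was under 2-fold after median-ratio scaling, after quantile normalisation and without Parental replicate 2 (lowest difference 0.90). In IDH1R132H FLI1 was 0.90 above Parental (3.79e-06) and in IDH2R140Q 0.69 (5.12e-05). TAL1, LMO2, GATA2, LDB1, TCF3 and CBFB did not rise or fall in any line, although LDB1 passed as lower in IDH2R140Q after median-ratio scaling (−1.02). The list had 1 member higher in IDH1R132H, IDH2R140Q and IDH2R140W and 2 in IDH2R172K, where 7.74%, 7.56%, 2.68% and 6.36% of all tested genes rose in these comparisons in turn. Its medians were 0.30, 0.22, 0.02 and 0.31, beside 0.16, 0.23, 0.03 and 0.13 over all tested genes. The IDH2R140Q median was −0.04 and the IDH2R140W median −0.03 after median-ratio scaling.

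**Figure D3:**
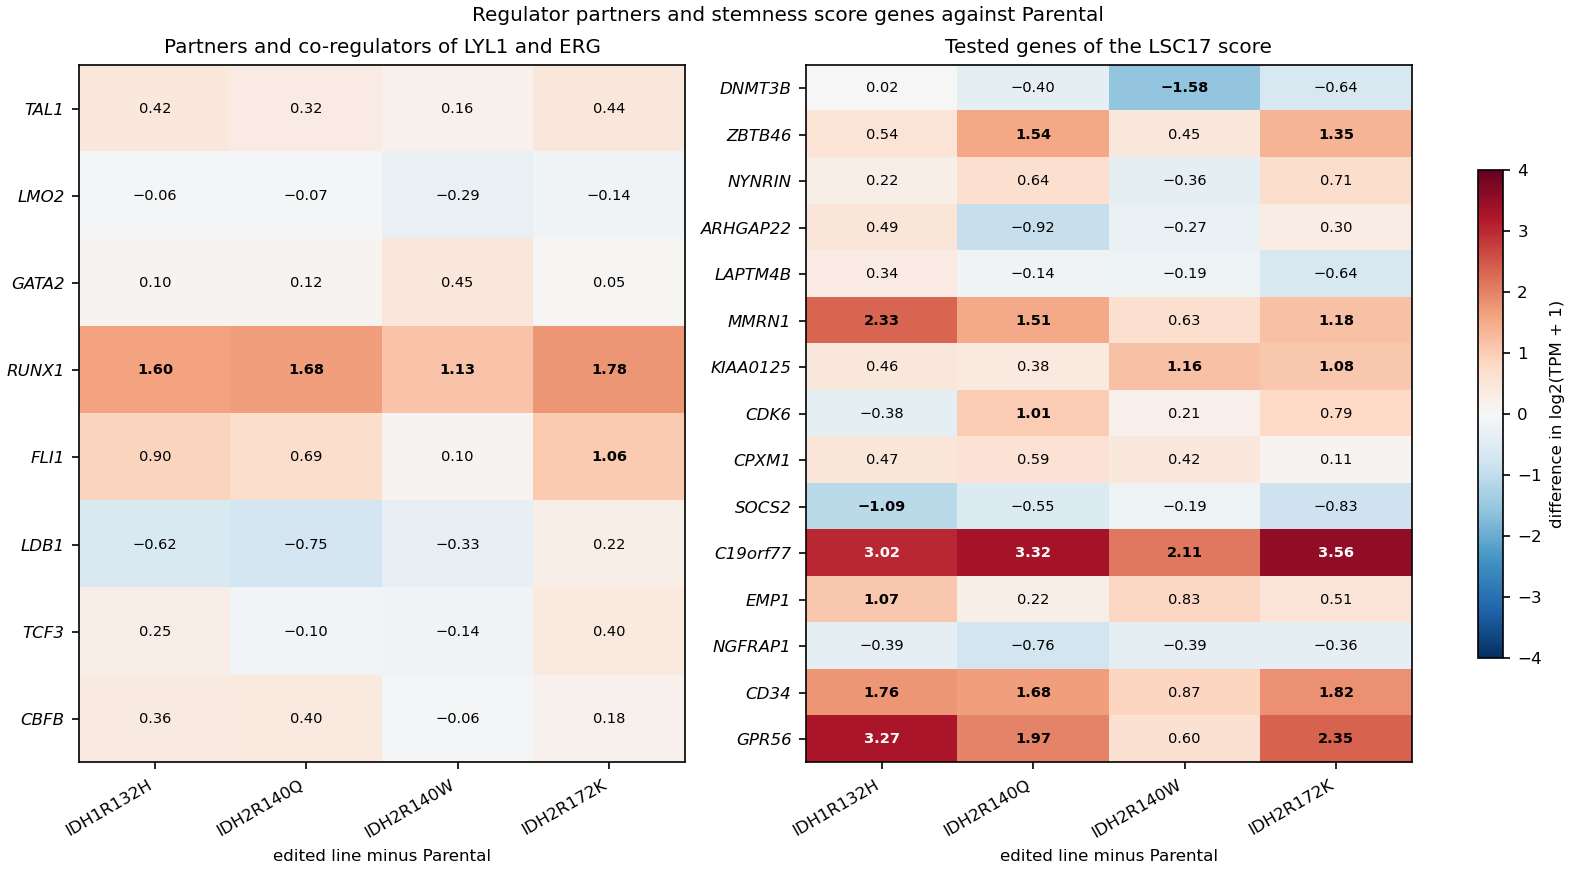
Difference in log2(TPM + 1), edited line minus Parental, for 8 partners and co-regulators of LYL1 and ERG (left) and the 15 tested genes of the LSC17 score (right), by colour and printed value. Bold values passed adjusted p under 0.05 and 2-fold. RUNX1 and C19orf77 are in bold in all 4 lines, and the largest value is 3.56 for C19orf77 in IDH2R172K.

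Of 24 other transcription and chromatin factors of stem and progenitor cells, 20 were tested, of which 4 rose in IDH1R132H and 3 in IDH2R140Q, and 2 in IDH2R140W and 4 in IDH2R172K, while 1 fell in IDH2R140W and 2 in IDH2R172K. Of all tested genes 7.74%, 7.56%, 2.68% and 6.36% rose, and 2.10% fell in IDH2R140W and 2.96% in IDH2R172K. MYCN, a MYC family factor of low level here, rose in all 4, at 8.11 ± 0.716 TPM in IDH1R132H and 14.2 ± 0.708 in IDH2R140Q, and 2.20 ± 0.370 in IDH2R140W and 19.95 ± 1.11 in IDH2R172K, against 0.573 ± 0.108 in Parental (SD, n = 3 each). Its difference in IDH2R140W was 1.02 and was under 2-fold without IDH2R140W replicate 1 or Parental replicate 3 (lowest 0.93). MYCN lay below 1 TPM in Parental and entered the fit through libraries of the edited lines alone. It had to be higher there, so its calls, counted above in all 4 lines, are a description. MEIS1, a HOX cofactor, rose by 3.27 in IDH1R132H, 2.699 in IDH2R140Q and 1.75 in IDH2R172K, and stood 0.55 above Parental in IDH2R140W (limma adjusted p = 0.0880). MEIS1, like CD34, had its smallest difference in IDH2R140W. The falls were ZBTB16 in IDH2R140W (−1.10; lost without IDH2R140W replicate 3 or Parental replicate 1, at −0.89 at the closest to 0) and GFI1 (−1.42) and MLLT3 (−1.27) in IDH2R172K. The list's medians were 0.48 in IDH1R132H and 0.29 in IDH2R140Q, and 0.23 in IDH2R140W and 0.12 in IDH2R172K, beside 0.16, 0.23, 0.03 and 0.13 over all tested genes, and after median-ratio scaling they were 0.29, 0.09, 0.18 and −0.03. In IDH1R132H 2 rather than 4 members rose after either scaling or without Parental replicate 2. In IDH2R140W the 2 that rose were MYCN and CEBPA, a myeloid factor (1.0838), and the count rested on single libraries. It was 0 without IDH2R140W replicate 1, 1 without Parental replicate 2 or Parental replicate 3, and 3 without IDH2R140W replicate 3 or Parental replicate 1.

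Of 20 other surface markers 15 were tested, and they moved in both directions. ADGRG1, also among the 20, was searched by that symbol alone and not found, since it is listed as GPR56. GPR56 rose by 3.27 in IDH1R132H, 1.97 in IDH2R140Q and 2.35 in IDH2R172K. The counts and medians of this list leave it out. CD38, an ectoenzyme that rises as progenitors leave the stem cell state, rose in the 3 IDH2 lines, at 9.26 ± 0.350 TPM in IDH2R140Q, 6.31 ± 2.18 in IDH2R140W and 5.50 ± 2.32 in IDH2R172K, against 1.31 ± 0.747 in Parental (SD, n = 3 each), and stood at 0.607 ± 0.160 in IDH1R132H (difference −0.48, limma adjusted p = 0.180). ITGA6, the integrin CD49f used to isolate human stem cells, rose by 1.53 in IDH1R132H, 2.12 in IDH2R140Q and 1.23 in IDH2R172K, and differed by −0.07 in IDH2R140W (0.834). KIT, the receptor of stem cell factor, fell by 1.52 in IDH2R140Q and by 1.19 in IDH2R172K, and its difference was −0.48 in IDH1R132H (0.0418) and 0.66 in IDH2R140W (0.0161). In all, 2 rose and 0 fell in IDH1R132H, 2 rose and 2 fell in IDH2R140Q, 1 rose and 1 fell in IDH2R140W, and 2 rose and 1 fell in IDH2R172K. Of all tested genes 7.74%, 7.56%, 2.68% and 6.36% rose in these lines in turn, and 3.09%, 2.47%, 2.10% and 2.96% fell. The list's medians were 0.41, 0.30, 0.29 and 0.22, beside 0.16, 0.23, 0.03 and 0.13 over all tested genes, and after median-ratio scaling they were 0.23, 0.03, 0.24 and 0.08. PROCR, the second gene that rose in IDH1R132H (1.13), was under 2-fold after either scaling (lowest 0.92). Without Parental replicate 1, 4 rose in IDH1R132H. In IDH2R140W 2 rose without Parental replicate 2, and 0 fell without IDH2R140W replicate 3 or with the compared libraries alone. Without Parental replicate 1, 3 rose in IDH2R140Q and in IDH2R172K, and without Parental replicate 3, 3 rose in IDH2R172K.

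The LSC17 score is a published set of 17 genes, CD34 among them, whose levels were weighted to predict outcome in acute myeloid leukaemia. The weights were not applied here, so the counts and medians below do not give the score or its direction. Of its 15 tested genes, 5 rose in IDH1R132H and 6 in IDH2R140Q, and 2 in IDH2R140W and 6 in IDH2R172K, and 1 fell in IDH1R132H (SOCS2, −1.09) and 1 in IDH2R140W (DNMT3B, −1.58). CD34, already reported above, is among those that rose in IDH1R132H, IDH2R140Q and IDH2R172K. Of all tested genes 7.74%, 7.56%, 2.68% and 6.36% rose in the 4 comparisons, and 3.09% fell in IDH1R132H and 2.10% in IDH2R140W. EMP1, counted among the 5 in IDH1R132H, averaged 1.34 TPM there and 0.11 in Parental. It entered the fit through libraries of the edited lines alone, so its calls are a description. C19orf77 rose in all 4 lines, at 38.4 ± 4.72 TPM in IDH1R132H and 47.4 ± 1.57 in IDH2R140Q, and 19.9 ± 2.52 in IDH2R140W and 55.9 ± 1.03 in IDH2R172K, against 3.88 ± 0.840 in Parental (SD, n = 3 each). GPR56, an adhesion receptor now named ADGRG1, rose by 3.27 in IDH1R132H, 1.97 in IDH2R140Q and 2.35 in IDH2R172K, and stood 0.60 above Parental in IDH2R140W (limma adjusted p = 0.0329). MMRN1, a platelet and endothelial multimerin, rose by 2.33, 1.51 and 1.18 in the same 3 lines and stood 0.63 above Parental in IDH2R140W (0.00231). The list's medians were 0.47, 0.59, 0.43 and 0.71 in the lines in turn, beside 0.16, 0.23, 0.03 and 0.13 over all tested genes, and after median-ratio scaling they were 0.28, 0.32, 0.38 and 0.56. In IDH2R140Q 5 rose and 2 fell after median-ratio scaling, and 5 rose and 1 fell after quantile normalisation. There 5 also rose without IDH2R140Q replicate 1, IDH2R140Q replicate 3 or Parental replicate 2. CDK6, at 1.01 in IDH2R140Q, was called under 8 of 14 alternatives. In IDH2R172K 5 rose after either scaling or without Parental replicate 3. In IDH1R132H 4 rose after quantile normalisation or without IDH1R132H replicate 2. In IDH2R140W 1 rose without Parental replicate 3, and 3 with a pseudocount of 0.1.

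Transcripts of blood lineages differed between the same groups. The summed level of 9 erythroid genes ran from 272 to 285 TPM in IDH1R132H, from 326 to 328 in IDH2R140Q, from 581 to 704 in IDH2R140W and from 1382 to 1495 in IDH2R172K, against 1872 to 2645 in Parental, and GATA1 among them was listed at 0 in all 15 libraries. Globins made up most of the Parental sum, with HBA1 at a mean of 387 TPM in IDH2R172K and 941 in Parental and HBG2 at 676 in IDH2R172K and 880.4 in Parental. GYPB and EPB42, by contrast, were highest in IDH2R172K, at means of 44.1 and 13.4 TPM, against 14.2 and 4.48 in Parental. Parental had the lowest CD34 and the highest erythroid sum, and among the edited lines IDH2R172K had the highest mean CD34 and the highest erythroid sum. CD34 in IDH1R132H, the line with the lowest erythroid sum, differed from that in IDH2R172K by −0.06 only (limma adjusted p = 0.773). The sum of 6 mast cell and basophil genes was 319.8 to 349.5 TPM in IDH1R132H, 614 to 692 in IDH2R140Q, 390.0 to 433 in IDH2R140W and 361 to 371 in IDH2R172K, against 75.8 to 91.3 in Parental. Most of it in each group came from FCER1A, at a mean of 298 TPM in IDH1R132H and 637 in IDH2R140Q, and of 319 in IDH2R140W and 248 in IDH2R172K, against 77.6 in Parental, and TPSB2 and HDC were lower in IDH1R132H (2.27 and 0.623) than in Parental (2.77 and 1.29). Of 6 endothelial genes, a lineage in which ERG and CD34 are also expressed, the sums were 598 to 630 TPM in IDH1R132H, 377 to 398 in IDH2R140Q, 312 to 432 in IDH2R140W and 558 to 597 in IDH2R172K, against 226 to 391 in Parental, most of it from TIE1, and VWF was listed at 0 in the Parental libraries. In IDH2R140W the means of PECAM1 (59.97 against 92.9 TPM) and CDH5 (0.467 against 0.747) were below Parental. KDR was level there (8.01 against 8.03), and TIE1, EMCN and VWF were higher. The sum of 6 megakaryocyte genes was 444 to 462 TPM in IDH1R132H, 527 to 552 in IDH2R140Q, 472 to 499 in IDH2R140W and 605 to 611 in IDH2R172K, against 336 to 384 in Parental. The part of these lineages in the results for CD34 and ERG was not tested. Of 5 genes taken as markers of TF-1, CSF2RB, PTPRC, CD33 and EPOR were present and CSF2RA, the alpha chain of the GM-CSF receptor, was listed at 0 in each library. Whether a 0 for CSF2RA or GATA1 means no transcript or reads that the table did not assign cannot be told from these values.

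The genes whose levels tracked each regulator most closely over the 15 libraries were taken by Pearson's r of log2(TPM + 1), as a description in which libraries of one group are not independent. For CD34 these were ZNF320, PTK2B and ZNF229, each with r of 0.98, and 318 genes reached 0.9. For ERG they were RAC2 (0.95), LDLRAD3 and ARHGEF7 (0.94 each), for LYL1 PLK3 (0.96), PPP1R15A and ALDOA (0.95 each), and for MECOM BET1L, KXD1 (0.93 each) and DNMBP (0.92). MYB was followed by CEP57 (0.97), DEK (0.96) and PARP14 (0.95), HHEX by CRISP3 (0.94) and AC093106.5 (0.91), and HLF by ZMYND19 (0.94), TRIM36 and RTFDC1 (0.92 each). Genes at 0.9 or more numbered 46 for MYB and between 7 and 19 for the other 5. ZNF320, the closest to CD34, averaged 8.86 TPM in IDH1R132H and 7.41 in IDH2R140Q, and 3.27 in IDH2R140W and 8.04 in IDH2R172K, against 0.553 in Parental, the same order of lines apart from the top pair.

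The 10 nearest tested genes on the chromosome of each regulator, 5 on either side, were compared with it. The neighbours of CD34 had a median of −0.42 in IDH1R132H and 0.14 in IDH2R140Q, and −0.11 in IDH2R140W and 0.18 in IDH2R172K, and 1, 0, 0 and 1 of the 10 rose there while 3, 1, 2 and 1 fell. Of all tested genes 7.74%, 7.56%, 2.68% and 6.36% rose in these lines in turn, and 3.09%, 2.47%, 2.10% and 2.96% fell. The medians over all tested genes, beside which each set of neighbours is to be read, were 0.16, 0.23, 0.03 and 0.13. CD34 lay above all 10 of its neighbours in each line. The neighbours of ERG had medians of 0.15, 0.50, 0.25 and 0.33, and 1 of them, DSCR9, rose in IDH2R140Q, while DSCR8 was listed at 0 in the edited lines and averaged 5.37 TPM in Parental. Around MECOM in IDH1R132H, by contrast, the median was 0.72 and 3 of 10 rose, which were BCHE (3.002), SERPINI1 (1.55) and GOLIM4 (1.005), whereas none rose in the other lines. BCHE averaged 9.43 TPM in IDH1R132H and 0.5 or less in each other group. It entered the fit only because of IDH1R132H, so its rise there is a description. MECOM and these neighbours spanned positions 161104696 to 169998373 of chromosome 3. The neighbours of LYL1 had medians of 0.58, 0.49, 0.39 and 0.52, above the difference of LYL1 itself in the IDH2 lines and below it in IDH1R132H. Other symbols of the table overlap MYB (MYB-AS1, at most 0.47 TPM), ERG (SNRPGP13, at most 0.84 TPM) and PROM1 (FGFBP2, listed at 0 throughout).

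**Figure D4:**
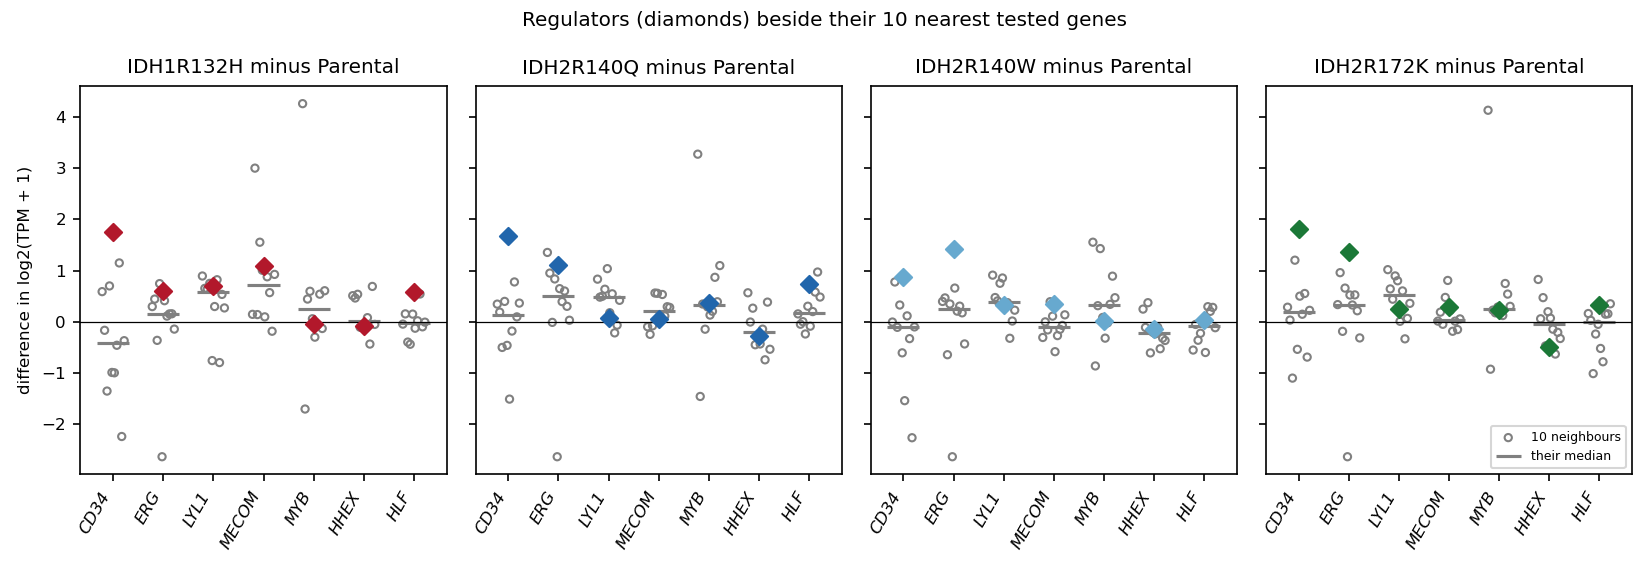
Difference in log2(TPM + 1), edited line minus Parental, of the 7 tested genes (diamonds) and of the 10 nearest tested genes of each (open circles, with a bar at their median), with a panel per line. CD34 lies above all of its neighbours in each line, and the neighbours of MECOM in IDH1R132H have a median of 0.72, the highest of their 4 medians.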

How the data were processed

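Poly(A) RNA was sequenced with a directional kit, per the labels' protocols. The authors deposited 1 table of TPM values with a column per library. Build hg38 and the tools DESeq2, RSEM, HTSeq and STAR 2.7.3 appear in the submitters' processing notes without saying what each did. Neither strand setting nor annotation release is given in the sources used here. The 63568 rows were summed by symbol, which affected none of the 9 genes, and 6 rows of ambiguous date-like symbols were left out. TPM keeps no read number, so the depth per library and its precision are unknown.

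Genes that reached 1 TPM in 3 or more libraries were fitted as log2(TPM + 1) with limma 3.58.1 (R 4.3.3), 1 mean per group over 15 libraries and an intensity trend, with Benjamini-Hochberg adjustment over 14881 genes. The 4 edited lines were compared with Parental and with each other. All 9 genes were named, beside the 3 changed members of each list with the largest difference, the 3 genes most correlated with each regulator and its 10 neighbours. Other members of a list were named after their values were seen. Some genes that this rule names are not reported here. The 9 genes and the lists were chosen with earlier results of these data known. On simulated data for IDH1R132H minus Parental, over 14881 genes, 34 of 34 genes raised and 32 of 33 lowered by log2 1.5 were recovered, as were all raised or lowered by 2 or 3, with 1 false call. The raised and lowered genes were drawn from those not scarce in Parental, and noise was independent between genes. Recovery was therefore not tested for scarce genes, for differences near 2-fold or for shifts shared by the genes of a library. Positions are from GENCODE 29, which gave 1 position to 84.0% of tested genes, and promoters from RefSeq (GRCh38.p14), matched by symbol for all 9 genes. Replicate numbers did not pair the libraries.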

Additional observations from a re-analysis of the deposited data

Results flagged for a closer look

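Differences between edited lines, which shared their medium, were taken for a closer look where the limma adjusted p of the difference itself was under 0.05. Relative to IDH2R140W, CD34 was higher by 0.90 in IDH1R132H and by 0.82 in IDH2R140Q, and IDH2R140W differed from IDH2R172K by −0.95. MECOM in IDH1R132H exceeded IDH2R140Q by 1.03, IDH2R140W by 0.74 and IDH2R172K by 0.80. LYL1 in IDH1R132H exceeded them by 0.64, 0.37 and 0.46, and in IDH2R140Q it differed from IDH2R140W by −0.26. ERG went the other way, with IDH1R132H at −0.83 against IDH2R140W and −0.77 against IDH2R172K. HHEX was higher than in IDH2R172K by 0.41 in IDH1R132H, 0.21 in IDH2R140Q and 0.35 in IDH2R140W. MYB differed by −0.43 between IDH1R132H and IDH2R140Q. HLF, at about 1 TPM or below, exceeded IDH2R140W by 0.55 in IDH1R132H and by 0.71 in IDH2R140Q. It entered the fit through edited lines other than IDH2R140W, so it had to differ there and its 2 differences are a description. Of these 18 differences the MECOM value of 1.03 alone reached 2-fold.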

How the results depend on the processing

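Over the alternatives, 908 of the differences of single genes kept their direction and call, 9 lost and 8 gained the call, and 24 changed sign. With a pseudocount of 0.1, HLF passed in IDH1R132H against IDH2R140W and in IDH2R140Q against IDH2R140W, so 1 gene was called there and not 0. It also passed against Parental in IDH1R132H (1.35) and in IDH2R140Q (1.64), where 3 and not 2 were called. HLF reached 1 TPM in no Parental or IDH2R140W library, so these calls are a description. Median-ratio scaling and quantile normalisation each gave 1 and not 2 in IDH1R132H and in IDH2R140Q against Parental. They turned MECOM in IDH2R140Q to −0.17 and −0.23 and HHEX in IDH1R132H against IDH2R140W to −0.090 and −0.092, and median-ratio scaling turned LYL1 in IDH2R140Q to −0.20 and MYB in IDH2R140W to −0.032. Without Parental replicate 2 and IDH2R140W replicate 3, chosen after the data were seen, 1 gene rose in IDH1R132H and in IDH2R140Q against Parental, ERG fell in IDH1R132H against IDH2R140W (1 call), and MECOM in IDH2R140Q was −0.16. The cause was not tested.

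Leaving out 1 library, the count ran from 1 to 2 in IDH1R132H and in IDH2R140Q against Parental, and from 0 to 1 in IDH1R132H against IDH2R140Q, IDH1R132H against IDH2R140W and IDH2R140W against IDH2R172K. The libraries that decided these were Parental replicate 2, IDH2R140Q replicate 3 and the 3 IDH2R140W replicates. Differences that changed sign lay near 0. Against Parental they ran from −0.16 to 0.20 for MECOM in IDH2R140Q, from −0.19 to 0.041 for MYB in IDH1R132H, from −0.12 to 0.19 for MYB in IDH2R140W and from −0.0031 to 0.078 for HLF in IDH2R140W. Against IDH2R172K, ERG in IDH2R140W ran from −0.082 to 0.33 and MECOM from −0.066 to 0.27, and MYB in IDH1R132H against IDH2R140W ran from −0.25 to 0.016.

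Replicate numbers did not pair the libraries: deviations of libraries with the same number correlated between −0.285 and 0.223, with 1 of 30 pairs over 0.1, and 7 of 15 libraries lay closest to one of their own number. The replicate block left the counts of called genes at 2, 2, 1 and 2 against Parental and at 1 for IDH1R132H against IDH2R140Q. Depth is unknown, so precision at the level of HLF, SPINK2 and PROM1 cannot be given.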
